A study of Mus musculus with 72 samples.

Results

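The 10 genes described here encode the Mcm helicase and the factors that load and start it at replication origins. They were taken by symbol from a fixed list (Mcm2, Mcm3, Mcm4, Mcm5, Mcm6, Mcm7, Mcm10, Cdc45, Cdc6 and Cdt1), a rule that uses no measured value, and all 10 were found among the 51826 genes of the count files. Their mRNAs were measured in E14TG2a mouse embryonic stem cells, an established line grown in 2i medium with LIF, by SLAM-seq. In SLAM-seq, cells take up 4-thiouridine (4sU), newly made RNA carries it, and chemical alkylation makes it read as a T-to-C (T2C) conversion in poly(A)-selected, strand-specific sequencing. Cells were split by stepwise detergent extraction into cytosol (digitonin), membrane (NP-40) and nucleus (the remaining pellet), and whole cells were sequenced alongside. The labels name no genotype or treatment other than 4sU, and the groups differ by fraction, labeling time and replicate.

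The 72 libraries, 18 per fraction, come from 6 separately passaged and labeled replicates that fall into 3 pairs. The first pair, replicates 1 and 2, supplied labeling times of 15, 20 and 30 min. The second pair, replicates 3 and 4, supplied 20, 40, 60 and 120 min, while 60 and 120 min alone came from the third pair, replicates 5 and 6. Following the study's own selection, the 120 min libraries of replicates 3 and 4 were left out of the main comparisons between fractions, which leaves 64 libraries. Short labeling times thus come only from replicates 1 to 4, and labeling time and replicate pair cannot be told apart beyond the 20 and 60 min time points they share. No unlabeled library was used here, so no background conversion was subtracted. The labels give 500 µM 4sU up to 40 min and 100 µM at 60 and 120 min. The methods instead give 500 µM for some of the 60 min replicates, without naming them. At 60 min the mean conversion rate was 7.43% in replicates 3 and 4 and 3.01% in replicates 5 and 6. A difference in concentration between these pairs cannot be told apart from other differences between them. The study also set aside libraries labeled with 500 µM beyond 60 min, because gene expression changed in them. Concentration was not used to form groups.

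Before a cell replicates its DNA, each origin has to be licensed. The origin recognition complex together with Cdc6 and Cdt1 loads the ring of Mcm2 to Mcm7 onto DNA in an inactive state. In S phase, Cdc45 and the GINS complex join the ring to form the active helicase, and Mcm10 helps that conversion. Cdc6 and Cdt1 proteins are controlled by degradation and, for Cdt1, by the inhibitor geminin, so that an origin is used only once per cycle. E2F transcription factors drive many of these genes around the start of S phase, and embryonic stem cells, which have a short G1 phase, are known to express them strongly.

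Promoters in the RefSeq table (250 bases before to 50 after each annotated start, GRCm38.p6) were searched on both strands for 4 spellings of the E2F site, TTCCCGC or TTCGCGC or TTGGCGC or TTGCCGC, and matches of different spellings may overlap. Mcm4 has no entry in that table, and Mcm7 has more than 1 start. A match was found for 6 of the other genes, namely Mcm3, Mcm5, Mcm6, Mcm7, Cdc6 and Cdt1. Mcm2, Mcm10 and Cdc45 held none in this window. Of all 32851 promoters, 9.57% held at least 1 match. The match nearest the start site of each gene is shown on the gene's own strand, because these sites are the sequence feature that the loaders and part of the ring have in common. Capitals mark the match itself, which stands as GCGGGAA or GCGCGAA or GCGCCAA where it lies on the opposite strand.
Cdc6 (chr11:98908002-98908031, plus strand, match 138 bases before the start): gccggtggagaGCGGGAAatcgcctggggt
Cdt1 (chr8:122568022-122568051, plus strand, match 19 bases after the start): gcgcggaatccGCGGGAActacctttttgg
Mcm3 (chr1:20820275-20820304, minus strand, match 20 bases after the start): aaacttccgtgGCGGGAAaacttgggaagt
Mcm5 (chr8:75109349-75109378, plus strand, match 149 bases before the start): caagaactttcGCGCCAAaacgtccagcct
Mcm6 (chr1:128359663-128359692, minus strand, match 25 bases after the start): gccggaggcgcGCGCGAAgtggcagcgcgg
Mcm7 (chr5:138171848-138171877, minus strand, match 18 bases after the start): ggtgacgacgtTTCGCGCcaatttcggttg

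A match is only a stretch of letters and was not tested for binding. Mcm6 held the most matches, 5 in its single promoter, and Cdc6 held 1.

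On GRCm38 the genes range in length from 5.54 kb (Cdt1, chr8:122568015-122573554) to 31.5 kb (Cdc45, chr16:18780447-18811987). The loader Cdc6 lies at chr11:98907801-98923940. Of the ring, Mcm2 lies at chr6:88883474-88898780, Mcm3 at chr1:20802968-20820312, Mcm4 at chr16:15623897-15637400, Mcm5 at chr8:75109569-75128439 and Mcm6 at chr1:128331590-128359664, and Mcm10 lies at chr2:4989714-5012791. Mcm7 (chr5:138164583-138172422) hosts the microRNA genes Mir25, Mir93 and Mir106b on its own strand. Exons of Mcm7 overlap Cops6 and Ap4m1, and exons of Cdc45 overlap Ufd1, each on the opposite strand. Whether the counting used strand is not given in the sources used here, so the reads of these overlaps are uncertain.

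Libraries held 13185351 to 52975732 reads in genes. The 8 stem cell markers summed to between 3814 and 6761 CPM (reads per 1000000 reads in genes) in whole cells, against 1.78 to 12.7 CPM for 6 fibroblast markers, of which 5 were below 1 CPM, and 8.11 to 26.0 CPM for 7 markers of primitive endoderm and differentiating cells. Nuclear RNAs and membrane mRNAs each had their highest median in their own fraction. Whole-cell replicate 6 stood apart. There the share of new mRNA was lower at 120 than at 60 min for 10 of 10 members and for all but 1.09% of genes, against a rise in 10 of 10 members in replicate 5 and in the other 3 fractions of both replicates. Whole-cell half-times and the comparison of each gene with the ring are given with and without this replicate. Fewer cells expressing a gene and less RNA per cell cannot be told apart in bulk libraries.

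The ring genes were among the most abundant mRNAs of the cells. Levels are compared between genes as CPM per kb of exon, with no scaling beyond library size. Counts were summed within each replicate over its labeling times, so deeper libraries weigh more. In whole cells Mcm5 averaged 114 ± 32.0 CPM per kb (SD, n = 6), Mcm3 108 ± 33.8, Mcm7 104 ± 27.5, Mcm6 84.4 ± 16.7, Mcm4 84.0 ± 23.3 and Mcm2 51.7 ± 13.6. Of the loaders, Cdt1 stood at 49.7 ± 14.5 CPM per kb and Cdc6 at 13.1 ± 3.12. The activation factors Mcm10 and Cdc45 averaged 25.9 ± 3.57 and 17.4 ± 2.96 CPM per kb. Mcm5 thus lay at the 98.2 percentile of 17830 detected protein-coding genes, and Cdc6, the lowest member, at the 79.2 percentile.

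The order of whole-cell levels per kb was the same in 6 of 6 replicates for Mcm7 above Mcm6, Mcm4 above Mcm2, Cdt1 above Mcm10, Mcm10 above Cdc45 and Cdc45 above Cdc6. The other neighbours (Mcm5 and Mcm3, Mcm3 and Mcm7, Mcm6 and Mcm4, Mcm2 and Cdt1) changed places between replicates and did not differ beyond their spread. Mcm2 to Mcm7, whose proteins assemble in equal numbers, spanned from 51.7 to 114 CPM per kb. The order and this span depend on the exon length used, which was 6.96 kb for Mcm2 and 3.59 kb for Mcm4. In CPM without that division, the whole-cell median over libraries was 344 for Mcm2 and 302 for Mcm4. Whether these lengths match the mRNAs of these cells was not tested. Read counts per library ranged from 609 to 33512 over all members and fractions, so counting error was small beside the spread between replicates.

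**Figure D1:**
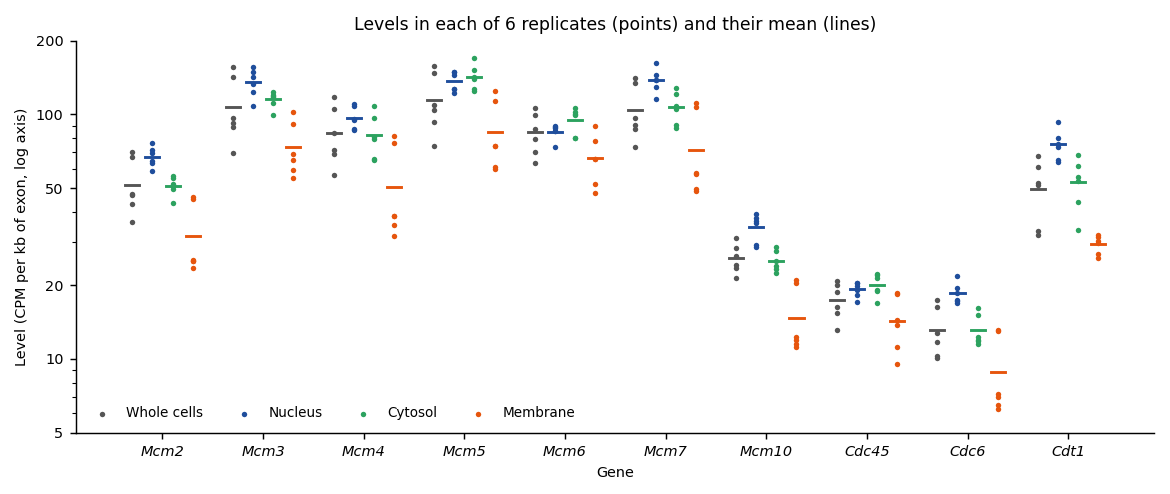
Level of each gene in CPM per kb of exon in the 4 fractions, with points for the 6 replicates and lines for their mean. Mcm3, Mcm5 and Mcm7 lie highest in every fraction by mean, with Cdc45 and Cdc6 lowest, and whole-cell and membrane values spread most between replicate pairs.

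Much of that spread lay between replicate pairs. In whole cells Mcm3 stood at 69.6 and 96.7 CPM per kb in replicates 1 and 2, at 157 and 142 in replicates 3 and 4, and at 88.9 and 92.7 in replicates 5 and 6. The membrane fraction showed the same split for Mcm2, with 25.1, 25.4, 45.8, 45.1, 23.6 and 25.2 CPM per kb in replicates 1 to 6. Replicates 3 and 4 were above the other 4 in both cases. Nuclear levels were more even, and Mcm2 there ranged only from 58.5 to 76.3 CPM per kb.

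Between nucleus and cytosol few members differed in level. In edgeR's quasi-likelihood test with Benjamini-Hochberg adjustment, a gene was called when its adjusted p was under 0.05 and its log2 fold change exceeded 0.5 in size. Of the 10 members 1 was called, Mcm6, with a lower level in the nucleus, whereas 64.7% of 19725 genes were called (34.6% higher, 30.1% lower in the nucleus, or 6817 and 5943 genes). With library size alone, an alternative chosen after seeing the data, the split was 8674 higher and 3442 lower. The median log2 difference was -0.04 over the members and 0.02 over all genes.

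Mcm6, which encodes a ring subunit, stood at 85.4, 73.9, 85.8, 87.7, 88.5 and 89.8 CPM per kb in the nucleus of replicates 1 to 6. In the cytosol it stood at 80.5, 79.9, 102, 107, 101 and 99.5. Nuclear values were below cytosolic ones in 5 of 6 replicates, though the ranges overlap, and after scaling the log2 difference was -0.51 (SE 0.10, adjusted p = 6.8e-05 by edgeR). Cdc45 and Mcm5 followed at -0.43 (SE 0.09, adjusted p = 1.2e-04) and -0.41 (SE 0.12, adjusted p = 0.0028), under the fold threshold. The remaining members lay between -0.14 (Mcm3) and 0.16 (Cdt1), and Mcm3 and Mcm4 turned positive under the other scalings. The Mcm6 call depends on how libraries are scaled. With library size alone, which places the median of all genes at 0.38 in place of 0.02, the Mcm6 difference was -0.14 (adjusted p = 0.19 by edgeR). It was -0.34 with DESeq2 size factors, and it lay between -0.55 and -0.25 with 1 replicate left out, and was not called without replicate 1, 2, 3 or 4.

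Ratios of members within a library do not depend on the scaling. Relative to the mean of Mcm2 to Mcm7, the nucleus-to-cytosol log2 ratio of Mcm6 was -0.32 ± 0.10 (SD, n = 6) and ranged from -0.43 to -0.18. That of Mcm5 was -0.23 ± 0.10 and that of Cdc45 -0.24 ± 0.12. All 3 were below 0 in 6 of 6 replicates. Both loaders lay on the other side, Cdc6 at 0.34 ± 0.13 and Cdt1 at 0.37 ± 0.40, as did Mcm10 at 0.28 ± 0.18, Mcm2 at 0.22 ± 0.14 and Mcm7 at 0.20 ± 0.07, each above 0 in 6 of 6 replicates. Cdt1 varied most, from 0.04 in replicate 5 to 1.02 in replicate 3. Mcm3 and Mcm4 fell on both sides of 0. Thus Mcm5 and Mcm6 stood apart from Mcm2 and Mcm7 within the ring by an amount larger than the spread between replicates.

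**Figure D2:**
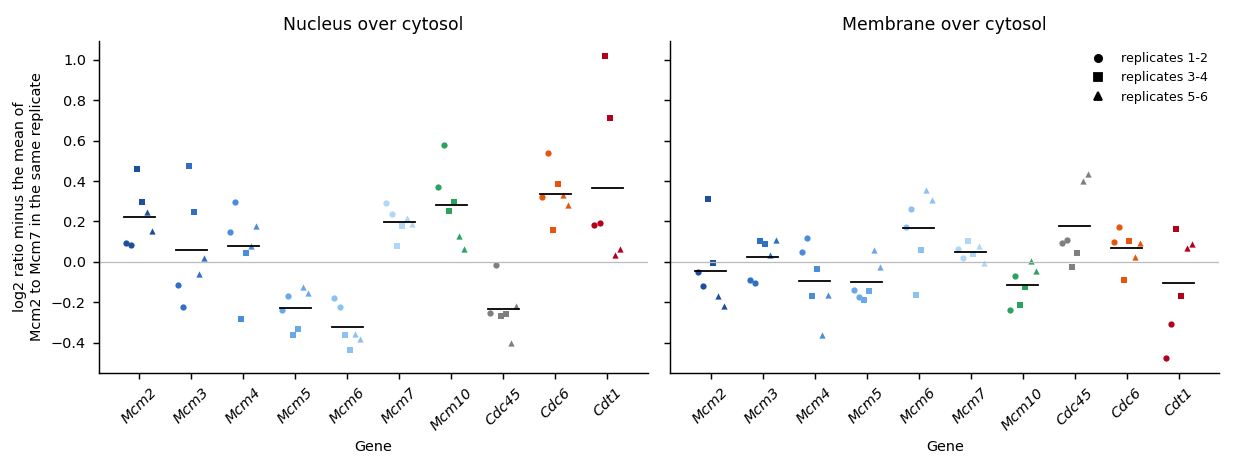
Nucleus-to-cytosol log2 level ratio of each gene relative to the mean of Mcm2 to Mcm7, with a point for each of 6 replicates and a line for their mean. Mcm5, Mcm6 and Cdc45 lie below 0 in every replicate, and Cdc6, Cdt1, Mcm10, Mcm2 and Mcm7 lie above 0.

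All 10 members had lower levels in the membrane fraction than in the cytosol, and the median of all genes was lower there too. Mcm6, at a log2 difference of -0.23, had an adjusted p of 0.061 by edgeR. Mcm6 and Cdc45 lay at the 41.5 and 42.3 percentiles of all genes. The log2 difference ran from -0.22 for Cdc45 to -0.51 for Mcm10 (SE 0.10, adjusted p = 9.9e-05 by edgeR) and -0.51 for Cdt1 (SE 0.14, adjusted p = 0.0035). These last 2 were the only members called, both lower, against 34.2% of all genes (22.8% higher, 11.4% lower in the membrane, or 4496 and 2245 genes, and 3913 and 7810 with library size alone). The median was -0.40 over members and -0.13 over all genes. With library size alone the median of all genes moved to -0.44 and 10 of 10 members were called lower, whereas with no filter on low counts 0 were, so the number of calls depends on scaling and filter. Mcm10 stood at 11.2, 11.5, 21.1, 20.4, 11.96 and 12.3 CPM per kb in the membrane of replicates 1 to 6 and at 25.1, 22.4, 28.6, 27.6, 23.3 and 23.9 in the cytosol. Its groups did not overlap in these unscaled values, where the median of all genes lay at -0.44. How many other genes show no overlap was not counted. In CPM with no further scaling its log2 ratio was -1.06, -0.44 and -0.96 in the 3 replicate pairs.

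The share of new mRNA differed widely between the members. This share is the fraction of sequenced T positions read as C, divided by the conversion rate that the authors estimated for the library, and it is given here in percent. It rises with labeling time toward 100%, and in cytosol and membrane its pace also depends on the age of the mRNA when it leaves the nucleus. In nuclei labeled for 120 min (replicates 5 and 6), the new share reached 76.4% and 69.4% for Cdc6, 68.0% and 68.4% for Cdt1, and 54.3% and 50.9% for Mcm10. The ring genes had reached only 20.9% (Mcm4) to 29.4% (Mcm3) on average, and Cdc45 27.3%. The median over 11575 genes was 43.0% and over the 10 members 26.8%, so the loaders lay above the usual gene and the ring below it.

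Cdt1, the loader that geminin inhibits, had the highest nuclear share of the members in every condition but 120 min of replicates 5 and 6, where Cdc6 did. It stood at 14.5% and 10.5% after 15 min in replicates 1 and 2. After 20 min it stood at 17.8% and 24.3% in those replicates and at 29.4% and 26.9% in replicates 3 and 4. After 30 min it was 30.7% and 40.1%, and after 40 min 37.3% in both replicates. In the cytosol the same mRNA began at 3.67% and 2.37% after 15 min, reached 11.6% and 9.25% after 30 min, and 68.3% and 69.6% after 120 min in replicates 5 and 6. Cytosol and nucleus were thus far apart at 15 min in replicates 1 and 2 and level at 120 min in replicates 5 and 6, while after 120 min in replicates 3 and 4 the mean shares were 69.7% in the nucleus and 51.8% in the cytosol.

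Cdc6, the ATPase that acts with Cdt1 in loading, started lower. Its nuclear share was 5.86% and 3.48% after 15 min, 22.4% and 27.7% after 30 min, and 38.4% and 33.8% after 60 min in replicates 5 and 6. In the cytosol it reached 80.8% and 76.3% after 120 min, the highest value of any member.

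Mcm10, which helps to turn the loaded ring into the active helicase, lay between the loaders and the ring. Its nuclear share was 2.47% and 1.64% after 15 min, 8.997% and 13.04% after 30 min, 17.6% and 14.5% after 40 min (replicates 3 and 4) and 30.5% and 26.2% after 60 min (replicates 5 and 6). In the cytosol it stayed at 2.67% and 2.92% after 40 min, below the ring gene Mcm3 at 5.61% and 4.58%, and was 8.72% and 7.26% after 60 min in the same replicates 3 and 4. It stood at 24.2% and 20.8% after 60 min and at 49.6% and 50.5% after 120 min in replicates 5 and 6. After the same 40 min the cytosolic shares were 10.9% and 12.2% for Cdt1 and 13.9% and 13.4% for Cdc6.

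Mcm6 had the highest nuclear share of the ring after 15 min. Its nuclear share was 5.52% and 4.93% after 15 min, 11.5% and 14.5% after 30 min, 10.8% and 10.7% after 40 min (replicates 3 and 4), and 25.0% and 23.4% after 120 min. In the cytosol it was 1.87% and 1.35% after 15 min and 19.2% and 18.5% after 120 min. The other ring genes in the nucleus after 15 min ran from 1.495% (Mcm5) to 4.45% (Mcm3) on average, and after 40 min from 8.42% (Mcm4) to 11.4% (Mcm3). In the cytosol after 120 min Mcm5 stood at 21.3% and 20.1%, Mcm7 at 21.9% and 20.3%, Mcm4 at 22.2% and 21.7%, and Mcm2 at 23.6% and 23.0%. These 4 genes spanned little more than their replicate differences, while Mcm3 stood above them at 31.8% and 30.2%. Mcm3 differed at short times too, with 3.35% and 3.13% in the cytosol after 15 min, where the other members averaged between 0.66% (Cdc45) and 3.02% (Cdt1). With no unlabeled library used, new RNA and background conversions in that value cannot be told apart.

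Cdc45 started slowest. Its nuclear share was 0.95% and 0.55% after 15 min, 0.56% and 0.97% after 30 min and 2.61% and 3.34% after 40 min, then 13.1% and 10.1% after 60 min in replicates 3 and 4 and 29.7% and 25.0% after 120 min in replicates 5 and 6. Between 15 and 40 min it was the lowest member in the nucleus in every condition, yet at 120 min it lay within the range of the ring. The nuclear median of all genes rose from 2.75% at 15 min to 15.3% at 40 min.

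**Figure D3:**
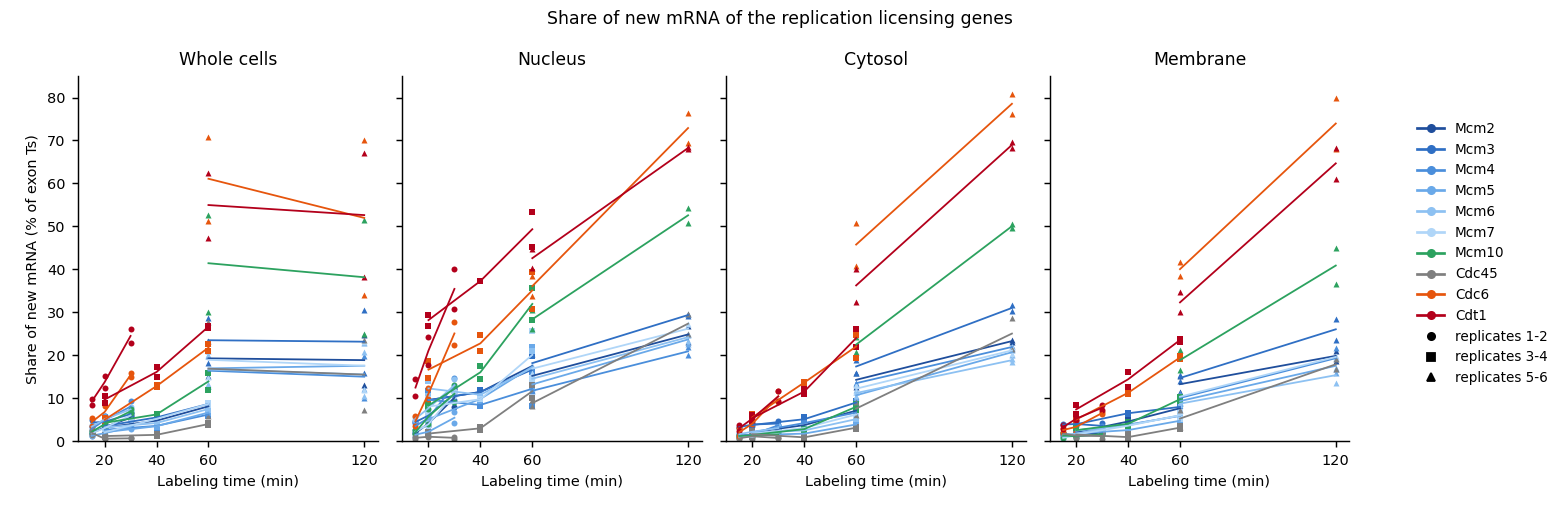
Share of new mRNA in percent against labeling time in min for each gene in the 4 fractions, one point per library. Cdc6, Cdt1 and Mcm10 reach the highest shares at 120 min, the ring genes reach at most 31.8% in nucleus, cytosol and membrane at 120 min, and whole-cell replicate 6 falls from 60 to 120 min.

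A single half-time summarizes each curve as the time after which the fitted share reaches 50%, from a least-squares fit of an exponential approach with a delay of 5 min over 16 libraries. In whole cells it was 87.4 min for Cdt1 and 96.1 min for Cdc6, 157 min for Mcm10, and for the ring 270 min (Mcm3), 333 min (Mcm2), 345 min (Mcm7), 380 min (Mcm6), 387 min (Mcm5) and 402 min (Mcm4). Cdc45 had 465 min. The median of all genes was 215 min and that of the members 339 min. Without replicate 6, whose 120 min library stood apart, the median was 212 min for all genes and 326 min for the members. Cdt1 then had 87.02 min, Cdc6 99.9 min, Mcm10 165 min and Cdc45 494 min, and the ring ran from 265 min (Mcm3) to 385 min (Mcm5), with Mcm4 at 379 min. Within replicate pairs the order of these medians was not fixed. In replicates 1 and 2 alone the members had the shorter median, 245 min against 315 min for all genes in whole cells and 160 min against 189 min in the nucleus, whereas in the other pairs theirs was the longer in both fractions.

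In the nucleus the half-times were shorter, from 55.9 min (Cdt1), 75.6 min (Cdc6) and 113 min (Mcm10) to 314 min (Cdc45), with a median of 226 min for members and 141 min for all genes. In the cytosol Cdc6 had 85.8 min and Cdt1 98.9 min, and Mcm5 and Mcm6 had the longest at 427 min each. In the membrane they ran from 97.1 min (Cdc6) to 548 min (Cdc45). Among neighbours in these orders, Mcm10 was slower than the next faster loader in 6 of 6 replicates of every fraction, and Mcm2 was slower than Mcm3 in 6 of 6 replicates of whole cells, cytosol and membrane. Mcm3 was slower than Mcm10 in 5 of 6 replicates of whole cells and nucleus, but in only 2 of 6 of cytosol and membrane. Cdc6 and Cdt1 did not differ beyond the spread between replicates in any fraction. Half-times fitted to single replicates depended on the labeling times they held. For Cdc6 in the cytosol they ran from 51.2 min (replicate 5) to 211 min (replicate 2), and for Cdc45 in the nucleus from 252 min (replicate 5) to 1609 min (replicate 1), so the fitted exponential does not describe its slow start.

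Nuclear mRNA held a larger new share than cytosolic mRNA for most members. In limma's test on log2(share + 0.01), with 1 value per replicate and the replicate pair as covariate, 9 of 10 members were higher in the nucleus (Benjamini-Hochberg adjusted p under 0.05), against 77.4% of 11575 genes (79% counting both directions, 1.54% lower). The differences on that scale, which understates changes of small shares, were 1.22 for Mcm6 (SE 0.19, limma adjusted p = 6.1e-06), 1.19 for Mcm10, 1.15 for Cdt1, 1.10 for Mcm7, 0.89 for Mcm5, 0.86 for Mcm2, 0.76 for Mcm4, 0.61 for Cdc6 and 0.56 for Mcm3. Cdc45 was at 0.38 (SE 0.19, limma adjusted p = 0.065). The member median of 0.87 lay beside 0.81 over all genes, so the members as a group did not stand out. With no covariate for the pair, 0 of 10 members passed, with adjusted p from 0.53 to 0.71 by limma.

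For most members the lead of the nucleus was small in replicates 5 and 6, which hold late times only. Ratios are given here between the mean shares of 2 replicates, with nothing added. For Cdt1 the nuclear share was 4.13 times the cytosolic one after 15 min, 5.27 times after 20 min in replicates 3 and 4, 3.23 times after 40 min and 2.06 times after 60 min. In replicates 5 and 6 it was 1.17 times after 60 min and 0.99 times after 120 min. Cdc6 fell below 1 in those replicates, at 0.79 after 60 min and 0.93 after 120 min, with the cytosolic share above the nuclear one in both replicates. For Cdc45 the ratio was 1.14, 0.90 and 1.07 at 15, 20 and 30 min in replicates 1 and 2, where its mean shares in both fractions lay between 0.66% and 1.13%, and then 3.42 after 40 min and 3.72 after 60 min in replicates 3 and 4. The median ratio of all genes ran from 1.65 at 15 min through 3.64 at 20 min (replicates 3 and 4) to 1.11 at 120 min (replicates 5 and 6). At 60 min the pairs differ, 2.36 against 1.19 for all genes, so labeling time alone does not set the ratio. The conversion rate of these libraries also differed, with a mean of 7.43% in replicates 3 and 4 and 3.01% in replicates 5 and 6. Their 4sU concentration may have differed too. The part of either in the ratio was not tested.

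Within replicate pairs the difference on the log2(share + 0.01) scale was 1.496, 1.82 and 0.35 for Mcm6 and 1.74, 1.61 and 0.11 for Cdt1. For Cdc6 it was 1.12, 0.93 and -0.22, and for Cdc45 0.04, 0.93 and 0.17. Cdc45 passed the threshold in 3 alternatives, at 0.52 without the 15 and 20 min libraries (limma adjusted p = 0.045), at 0.42 with the 120 min libraries of replicates 3 and 4 added (adjusted p = 0.043 by limma), and at 0.47 without replicate 1 (adjusted p = 0.044 by limma). Cdc6 lost its call without replicate 2, at 0.47 (limma adjusted p = 0.063).

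Over the 3 replicate pairs together, no difference in new share between membrane and cytosol was detectable for any member. Of the 10 members 0 were called by limma and 0 had an unadjusted p under 0.05, against 10.1% called (1.06% higher, 9.05% lower in the membrane) and 17.996% at that unadjusted level over all genes. Differences ran from -0.17 (Cdc6) to 0.03 (Mcm10) on the log2(share + 0.01) scale, with SEs of 0.16 to 0.21, and the medians were -0.05 for members and -0.03 for all genes.

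Introns of the members were labeled far faster than their exons in the nucleus, and for Cdc45 and the ring genes the gap was larger than the median of all genes. The intron share exceeded the exon share in 16 of 16 nuclear libraries for each of the 10 members. All 10 were called higher by limma, against 97.6% of 10380 genes with enough intron reads (97.8% counting both directions, 0.135% lower). The median log2(share + 0.01) difference was 2.47 for members and 1.79 for all genes. Cdc45 had the largest gap at 3.16 (SE 0.15, limma adjusted p = 1.3e-10), followed by Mcm4 at 2.93, and Cdt1 had the smallest at 1.22 (SE 0.13, limma adjusted p = 5.1e-07). Mcm10 and Cdc6, at 1.74 and 1.66, lay below the ring genes, which ran from 2.25 (Mcm6) to 2.93 (Mcm4).

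Cdc45, the slowest member in its exons up to 40 min, also had the lowest intron share of the members after 15 min, and its introns then rose far above its exons. They held 8.18% and 6.32% new RNA after 15 min, 36.6% and 37.4% after 30 min, 67.6% and 74.5% after 40 min, and 102% and 94.5% after 60 min in replicates 5 and 6. Its exons in the same 40 min libraries stood at 2.61% and 3.34%. Values over 100% arise because the conversion rate is an estimate. Of the members, Cdc45 also had the largest part of its nuclear signal in introns, 44.2% of the T positions covered, against 7.31% for Mcm2, 29.3% for Mcm10 and 24.8% for Mcm5. Cdt1, the shortest gene, was the fastest of all 10 at 15 min, with introns at 42.0% and 44.8%, and Mcm5 was among the slowest at 10.4% and 8.003%. The intron median of all genes at 15 min was 13.7% and that of the members 19.5%.

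**Figure D4:**
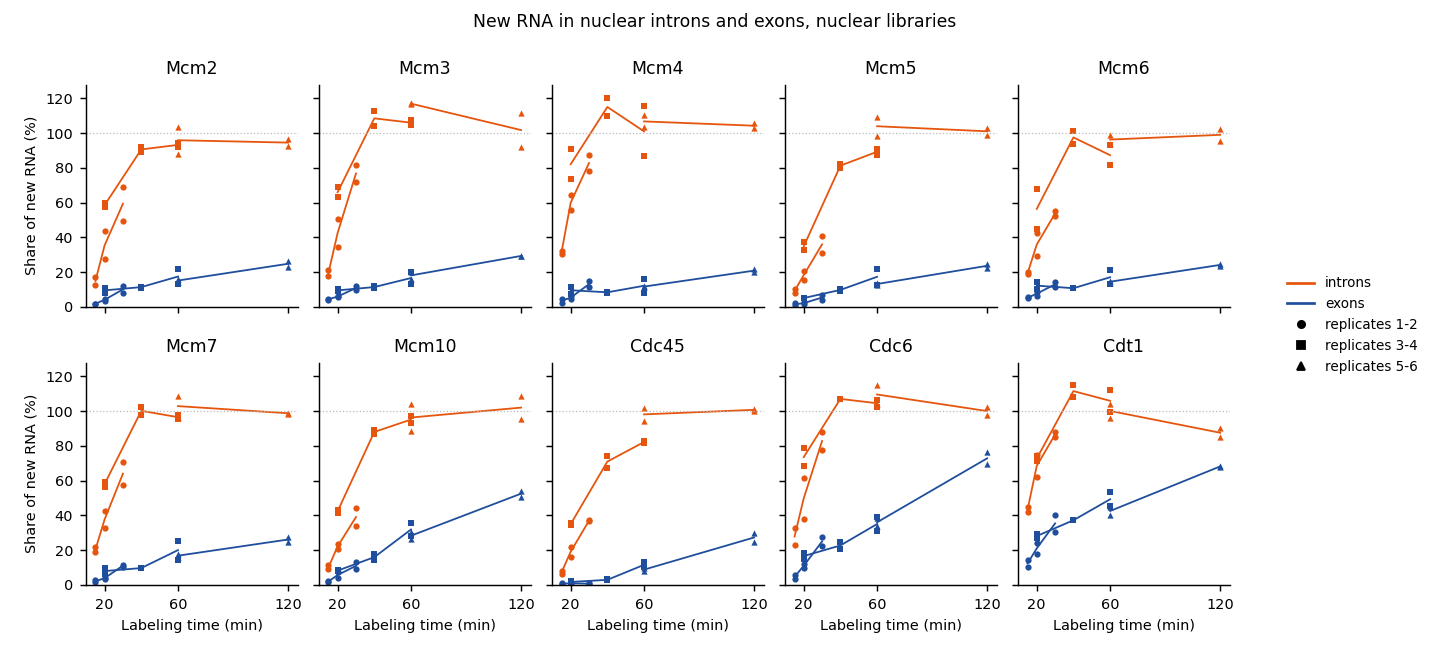
Nuclear share of new RNA in percent in introns and in exons against labeling time in min, one panel per gene and one point per library. Introns lie above exons in all 16 libraries of each gene and approach 100% by 60 min, while exons of Cdc45 stay at 3.34% or less up to 40 min.

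Along the mRNA, new nuclear reads lay toward the 3' end. The exons of each gene were split into a 5' and a 3' group with about the same number of T positions, and their shares were compared in nuclei at 20 min (4 replicates). Of the 10 members 9 had a lower share in the 5' group (limma on log2(share + 0.01), Benjamini-Hochberg adjusted p under 0.05), against 49.8% of 11327 genes (50.5% counting both directions, 0.644% higher). The median difference was -1.38 for members and -0.95 for all genes.

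Mcm6 had the largest difference, at -2.36 (SE 0.08, limma adjusted p = 0.0015), with a share of 0.0275 in the 5' exons and 0.175 in the 3' exons as fractions of 1. These exon groups lay on average 14.2 and 1.13 kb from the gene's 3' end. Mcm10 was at -1.83, Mcm3 at -1.75, Mcm7 at -1.57, Cdc6 and Mcm5 at -1.38, Mcm2 at -1.32, Cdt1 at -0.90 and Mcm4 at -0.63 (limma adjusted p = 0.011). The exception was Cdc45, at -0.19 (SE 0.28, limma adjusted p = 0.60), whose shares were 0.0121 in the 5' exons and 0.0156 in the 3' exons. Its exon groups lay 23.4 and 7.63 kb from the 3' end, so even its 3' group is farther away than those of the other members. Only 13394 T positions supported its 5' group in the shallowest library. Its shares were also close to the 0.01 added before the logarithm, with no background subtracted, so this test could hardly show a difference.

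The difference faded with labeling time. For Mcm6 the fractions were 0.111 and 0.201 at 60 min and 0.221 and 0.256 at 120 min, and for Cdt1 0.397 and 0.517 at 60 min and 0.653 and 0.712 at 120 min. Within Mcm6 the second-last annotated exon, 1.03 kb from the 3' end, had the highest fraction at 20 min, 0.255, against 0.120 in the last exon and 0.0825 in the exon 3.25 kb away. Without replicate 3 or without replicate 4, 0 members passed in limma, with adjusted p from 0.071 to 0.11 for the 9 members otherwise called, though their differences stayed about as large (Mcm6 at -2.42 and -2.30). Without replicate 1 or without replicate 2 all 9 calls held.

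**Figure D5:**
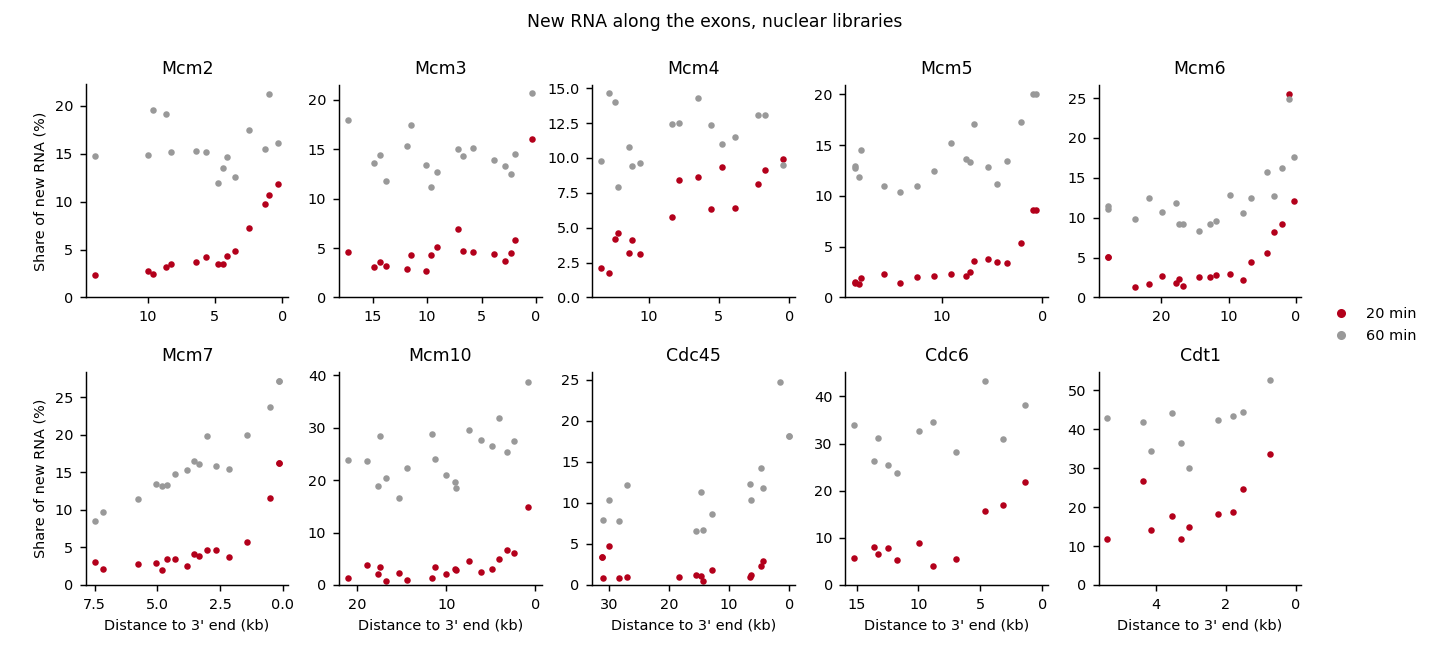
Share of new mRNA in percent in single nuclear exons against distance from the gene's 3' end in kb, for exons with at least 5000 T positions, at 20 min in red and 60 min in grey. As a fraction of 1, the 20 min share in Mcm6 is 0.255 at 1.03 kb and at most 0.0825 from 3.25 kb on, while Cdc45 exons stay low at all distances.

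No level change of a member between labeling times passed the main edgeR test, though the ring genes rose in the nucleus of replicates 3 and 4. Across 16 comparisons of labeling times within fractions and replicate pairs, 0 of 160 member values were called by edgeR. Of these values 12 had an unadjusted p under 0.05, beside 0.40% to 21.7% of all genes in single comparisons. The 120 min libraries of replicates 3 and 4, left out of the main comparisons between fractions, were used here. Their mean conversion rate was 10.7%, against 3.63% at 120 min in the third replicate pair. Between 20 and 120 min in replicates 3 and 4, edgeR called 2.91% of genes in the nucleus, 1.04% in the cytosol, 0.113% in whole cells and 0.0741% in the membrane. The largest shifts were in the nucleus of replicates 3 and 4 between 20 and 120 min, where Mcm3 was at 0.66 on the log2 scale (SE 0.18, edgeR adjusted p = 0.065), Mcm7 at 0.58, Mcm2 at 0.55, Mcm4 at 0.52, Mcm5 at 0.42 and Mcm6 at 0.39. The other 4 members lay between -0.03 (Cdt1) and 0.15 (Cdc45). The median shift was 0.40 over the members and 0.02 over all genes. In this comparison 5 of 10 members had an unadjusted p under 0.05, against 21.7% of the 17810 genes tested. With DESeq2, and with edgeR and no filter on low counts, 1 member was called, Mcm3. Without the 120 min libraries, between 20 and 60 min in replicates 3 and 4, the nuclear median shift over the members was 0.34. Between 60 and 120 min in the third replicate pair it was -0.02. Whether the high conversion rate had a part in the rise at 120 min was not tested. The difference between 20 and 120 min in the nucleus did not differ detectably from that in the cytosol. The gaps between them ran from -0.12 to 0.36 and 0 of 18402 genes were called by edgeR, with 0 members and 8.34% of all genes at an unadjusted p under 0.05.

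The wider replication pathway was described with 6 lists of 70 other genes (origin recognition, GINS, licensing control and firing, replisome, E2F and G1/S regulators, and the Mcm paralogs), all found in the files. In level, 7 were higher and 32 lower in the nucleus than in the cytosol by edgeR, beside 34.6% higher and 30.1% lower of all genes. With library size alone, chosen after seeing the data, 19 were higher and 16 lower, so the split depends on the scaling. All 4 GINS genes, partners of Cdc45 and Mcm2 to Mcm7 in the active helicase, were lower, as were 16 of 28 replisome genes (3 and 8 with library size alone). Gmnn, which encodes geminin, was at -1.42 (SE 0.15, edgeR adjusted p = 4.1e-09), Tipin, a fork protection factor, at -1.68 and Gins4 at -1.34. Recql4, a helicase needed for firing, was at 1.48, the retinoblastoma relative Rbl2 at 1.09 and Pole, the leading-strand polymerase, at 0.95. In the membrane 4 were higher than in the cytosol, among them the origin recognition subunit Orc5 at 1.41 (SE 0.13, edgeR adjusted p = 2.8e-10), and 11 were lower, among them Rfc1, a clamp loader subunit, at -0.77. Of all genes 22.8% were higher and 11.4% lower there, and with library size alone 1 of the 70 was higher and 53 lower.

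For shares of new mRNA, of 70 genes, 69 were higher in the nucleus than in the cytosol by limma, beside 77.4% of all genes, with E2f5 at 1.61, Rfc4 at 1.53 and Dna2 at 1.47 on the log2(share + 0.01) scale, and 0 were called between membrane and cytosol in the same test, beside 10.1% of all genes. Introns were higher than exons in 69 of 69 genes tested, beside 97.6% of all genes, led by the primase subunit Prim2 at 3.14. The 5' exons had the lower share at 20 min in 51 of 70, beside 49.8% of all genes, with Orc5 at -2.89, E2f8 at -2.72 and Pola1, the catalytic subunit of the priming polymerase, at -2.56. As for the members, these calls were lost without replicate 3 or without replicate 4, where 0 of all genes were called.

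The genes whose shares followed the mean of Mcm2 to Mcm7 most closely over all 64 libraries were Aars, Jpt2, Uba2, Eif4a3 and Caprin1. Their root mean square difference from that mean was 1.05, 1.08, 1.09, 1.12 and 1.28 percentage points, against a median of 8.30 over 11575 genes. Of the members, Mcm2 lay at 0.84 and Mcm7 at 1.12, and Mcm3 was the farthest of the ring at 2.98. Cdc45 lay at 4.21, Mcm10 at 10.7, and Cdt1 and Cdc6 at 22.0 and 22.2. The ring genes are part of their own mean, so their values are a description. Without the whole-cell libraries of replicate 6, 4 of these 5 genes were still among the 5 closest, with Caprin1 at rank 6, and the median was 8.08 over all genes.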

How the data were processed

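RNA from 72 libraries was aligned by the authors with STAR 2.7.6 to GRCm38 (Gencode M14), per the labels and methods. The deposited counts are whole reads per gene from HTSeq 0.11.1. The authors also deposited T and T2C counts for exons and for the introns of each gene, an estimated conversion rate per library as a fraction (binomial mixture), and the ratio T2C/T divided by that rate, which is the share of new mRNA and was recomputed here from the deposited counts. RSEM 1.3.3 was run too. Rows that name no gene (30.4% to 48.8% of reads) were left out.

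For comparisons between fractions, read counts were summed and log2 shares averaged to 1 value per replicate and fraction. Levels were tested with edgeR 4.0.16 (quasi-likelihood, TMM, replicate pair as covariate) and shares with limma 3.58.1 on log2(share + 0.01), for genes with at least 400 T positions in every library used (200 per exon group), in R 4.3.3 and Python 3.11.15. DESeq2 1.42.0 was an alternative. Scripts were tested on simulated data. Gene coordinates come from the reference annotation of GRCm38. P-values measure the spread between separately passaged cultures of 1 line. In tests between fractions, and between introns and exons, that spread also holds differences of the effect between replicate pairs. The pairs differ in labeling time, so it is not a spread between cultures alone. The 2 libraries of each condition differed by 4.57 to 275 in chi-square per degree of freedom, so none was counted as a duplicate. Deviations of levels from the group means correlated between same-numbered samples of different fractions (r from 0.14 to 0.68 in 18 comparisons, all above 0.1), so replicate numbers pair the samples. The named pathway genes are the largest called changes in each direction, from lists. The members and lists were chosen with earlier results of these data known.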

Additional observations from a re-analysis of the deposited data

Results flagged for a closer look

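Of 80 groups of 6 replicate values (levels per kb and half-times of 10 genes in 4 fractions), 2 held a value that Dixon's test places apart from the rest, and chance alone flags about 1 in 20 groups. The nuclear level of Mcm6 in replicate 2 was 73.9 CPM per kb, while the other 5 replicates lay between 85.4 and 89.8. The nuclear half-time of Mcm10 in replicate 1 was 207 min, while the other replicates lay between 99.2 and 138 min.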

How the results depend on the processing

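Over all comparisons and alternatives, 1828 of 2060 alternative values kept their direction and their side of the threshold (or stayed within the spread between replicates), 44 lost and 28 gained a call, 19 changed sign and 141 counts or values moved further. No alternative moved a member's half-time by more than its SD over replicates. That SD also holds the different labeling times of the replicates, so it could hardly be exceeded and this is no sign of stability.

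Levels between fractions depended on scaling. Members called lower in the nucleus numbered 0 with DESeq2, with RLE size factors, with no filter on low counts and with library size only (this last chosen after seeing the data), and 2 members were called higher with no filter and with library size only. Leaving out 1 replicate gave 0 to 1 lower. Members called lower in the membrane numbered 4 with DESeq2, 4 with RLE, 0 with no filter, 10 with library size only and 0 to 4 when 1 replicate was left out (4 without replicate 4, 1 without replicate 6, 0 without replicate 5). The sign of the nucleus-cytosol level difference changed for Mcm3 (0.034 with DESeq2, 0.034 with RLE, 0.23 with no filter, 0.21 with library size only, -0.18 to 0.19 with 1 replicate left out) and for Mcm4 (0.066 with DESeq2, 0.066 with RLE, then 0.27 and 0.27, and -0.17 to 0.14). Mcm7 was at -0.026 with no covariate and at -0.023 to 0.29 with 1 replicate left out, and Mcm2 at -0.0052 to 0.34.

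Shares in nucleus and cytosol gave 0 member calls with no covariate for the pair, and 0 of all genes were then higher. The 5'-to-3' comparison gave 0 to 9 member calls with 1 replicate left out, and without replicate 3 or 4 it called 0 of all genes in limma. Cdc45 there was at -0.38 to 0.00018 with 1 replicate left out. With 30 and 40 min in place of 20 min it was at -0.61 (limma adjusted p = 0.20). Between 20 and 120 min, nuclear calls numbered 1 member with DESeq2 and 1 with no filter, cytosolic calls 0 to 1 (1 without replicate 3), and nuclear Cdt1 lay at -0.17 to 0.039. The cause of these shifts was not tested beyond the scaling medians.

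With the replicate number as a block, the calls were 1 and 2 members lower for levels (nucleus and membrane against cytosol), 9 higher for nuclear shares, 0 for membrane shares, 10 for introns and 0 between labeling times, so the block changed no member call. It moved the genes called between 20 and 120 min in the nucleus from 277 higher and 241 lower to 65 and 84. Numbers did not pair the shares (r from -0.02 to 0.09, 0 of 18 above 0.1), and between labeling times r was above 0.1 in 30 of 40 comparisons.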
